A study of Homo sapiens with 11 samples.

Results

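The genes described here are 10 stem cell markers and regulators, CD44, CD24, PROM1, EPCAM, ALDH1A1, ALDH1A3, SOX2, SOX9, KLF4 and MYC, chosen by name from 28395 genes counted in prostate cancer cells with and without overexpression of the sialyltransferase ST6GAL1. All 10 had a row in the count tables of both cell lines. PC3 cells, which come from a skeletal metastasis of prostate cancer, and DU145 cells, which come from a brain metastasis, were transduced with lentivirus particles carrying ST6GAL1 or with control particles, and stable populations were compared, so that control cells had been transduced too. RNA-Seq was analysed for 6 PC3 libraries, 3 with control virus and 3 with ST6GAL1, and for 5 DU145 libraries, 3 with control virus and 2 with ST6GAL1, the latter numbered replicates 2 and 3. The labels call the replicates biological.

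ST6GAL1 adds α2-6 linked sialic acid to N-glycans of proteins in the secretory pathway, and several of the proteins encoded by these genes are glycosylated at the cell surface. CD44 is the receptor for hyaluronan, CD24 a small heavily glycosylated surface protein, PROM1 the CD133 antigen and EPCAM an epithelial adhesion molecule, and combinations of them are used to sort tumour cells with stem cell properties. ALDH1A1 and ALDH1A3 oxidise retinaldehyde to retinoic acid and account for much of the aldehyde dehydrogenase activity that marks such cells in the Aldefluor assay. SOX2, KLF4 and MYC are transcription factors used in reprogramming to pluripotency, and SOX9 is a transcription factor of epithelial progenitors in several tissues. A gene count gives the amount of RNA and not of protein or of its sialylation. In a bulk library, fewer cells of a type and less RNA per cell cannot be told apart.

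CD44 and KLF4 were called higher in DU145 cells with ST6GAL1 overexpression, and ALDH1A3 differed in opposite directions between the lines. The 250 bases before the RefSeq transcription start of these 3 genes on GRCh38.p14 are therefore shown. They lie at chr11:35138921-35139170 on the plus strand for CD44 and chr9:107489770-107490019 on the minus strand for KLF4. For ALDH1A3 they lie at chr15:100879581-100879830 on the plus strand. The gene spans given below come from GENCODE, where these 3 genes begin further upstream. All 3 windows lie inside those spans, and are upstream of the RefSeq start only. Capitals mark every match on either strand to any of 6 motifs, the TATA box TATAAA, the GC box GGGCGG, the E-box CACGTG that MYC with MAX recognises, CACCC as read by KLF proteins, the SOX core AACAAT and the AP-1 site TGANTCA.
CD44: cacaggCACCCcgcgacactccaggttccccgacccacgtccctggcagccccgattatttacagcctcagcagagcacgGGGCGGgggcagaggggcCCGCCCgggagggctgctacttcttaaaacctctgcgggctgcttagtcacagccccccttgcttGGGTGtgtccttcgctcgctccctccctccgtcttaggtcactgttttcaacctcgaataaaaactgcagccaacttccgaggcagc
KLF4: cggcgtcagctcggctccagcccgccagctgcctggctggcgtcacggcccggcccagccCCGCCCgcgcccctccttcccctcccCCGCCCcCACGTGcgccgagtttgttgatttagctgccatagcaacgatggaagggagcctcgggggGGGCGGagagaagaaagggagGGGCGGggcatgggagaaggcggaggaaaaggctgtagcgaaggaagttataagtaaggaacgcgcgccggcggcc
ALDH1A3: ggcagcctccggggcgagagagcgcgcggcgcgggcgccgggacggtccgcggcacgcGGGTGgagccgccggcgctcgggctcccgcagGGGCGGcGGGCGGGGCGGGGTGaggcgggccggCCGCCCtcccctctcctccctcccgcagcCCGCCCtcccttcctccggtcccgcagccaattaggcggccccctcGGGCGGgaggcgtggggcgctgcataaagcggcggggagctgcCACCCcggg
The CD44 stretch held 2 GC boxes and 2 CACCC matches, that of KLF4 4 GC boxes and 1 E-box, and that of ALDH1A3 6 GC boxes and 3 CACCC matches. In ALDH1A3, 1 base was shared between a pair of adjacent GC boxes and 1 base between a GC box and a CACCC match. Among 35116 promoters of the same length, 42.6% held GGGCGG, 54.7% CACCC, 6.34% CACGTG, 10.7% TATAAA, 8.98% AACAAT and 6.57% TGANTCA. These matches describe the letters of the window, and no factor binding was measured. Of the 10 genes, 7 had a promoter sequence in the reference table.

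Counts on genes totalled between 13194485 and 18201359 over the 11 libraries, and 3 counts, taken as the detection floor, corresponded to 0.165 to 0.227 CPM (the counts of a gene scaled to a fixed library total). Such floors cover counting error only. ST6GAL1 was read at 2.09 to 3.07 normalized CPM in PC3 control libraries and 31.8 to 33.4 with overexpression, and at 11.3 to 14.2 and 298 to 347.8 in DU145, which checks the labels. The DU145 overexpression libraries differed most between replicates, with a chi-square per degree of freedom of 13.3 against 1.39 to 5.46 for the other pairs of replicates. KRT8, an epithelial keratin, was abundant in both lines, with means of 258 to 561 normalized CPM over the 4 groups, whereas KRT5, the prostate-specific KLK3 and the haemoglobin gene HBB had no count in any library. The summed level of 9 markers of blood, vessel, stroma and liver was 32 to 34 normalized CPM in PC3 controls, 25.1 to 25.7 in PC3 overexpression, 5.6 to 7.76 in DU145 controls and 4.98 to 8.41 in DU145 overexpression, with COL1A1 the most abundant. Of these markers, the endothelial gene PECAM1 was called higher in DU145 with overexpression, on counts of 3, 7 and 6 in control and 12 and 26 in overexpression libraries (log2 fold change 1.63, adjusted p = 0.0259, edgeR), and CDH5 was too low to be tested. That call was lost with DESeq2 (adjusted p = 0.157) and without any of the DU145 control replicates or overexpression replicate 3, with a smallest change of 1.09 over all fits. HBB was the 1 marker at 0 in all 4 groups, and the part of the other markers in the results was not tested.

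PROM1, ALDH1A1 and SOX2 were at or near 0 in every library. PROM1 had 0 or 1 count in each of the 11 libraries, and so did ALDH1A1. SOX2 had no count except for 2 counts in PC3 control replicate 2. All these values are below the floor of 3 counts, so no fold change is given, and a difference in any of these genes was not detectable at this depth. POU5F1 and NANOG, the core pluripotency factors that act together with SOX2, had 0 or 1 count in every library as well. For POU5F1 this need not mean absence of RNA, since RXRB and RING1, which lie on the same chromosome arm and are broadly expressed, were also listed at 0 in every PC3 library. The remaining 7 genes, CD44, CD24, EPCAM, ALDH1A3, SOX9, KLF4 and MYC, passed the default expression filter of edgeR in both lines and were tested.

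With ST6GAL1 overexpression, none of the 7 tested genes was called in PC3, where 5.38% of 13544 tested genes were called (3.61% higher and 1.76% lower). A call needed a log2 fold change beyond 0.58 in either direction together with an adjusted p under 0.05. In DU145, CD44, SOX9 and KLF4 were called, all 3 higher, against 8.94% of 13676 tested genes called, 4.33% higher and 4.61% lower. At an adjusted p under 0.05 alone, 5 of the 7 passed in PC3 against 37.3% of all genes, 3 lower (18.5% of all genes) and 2 higher (18.8%), and 7 of 7 passed in DU145 against 20.1%, 4 higher (10.7%) and 3 lower (9.42%). The libraries of the compared groups did not overlap for 6 of the 7 genes in PC3 and 7 of 7 in DU145, where 46.2% and 48.3% of all genes did not overlap. Changes in PC3 were small, between -0.27 and 0.24 on the log2 scale, whereas those in DU145 ran from -0.55 to 0.86. CD44, ALDH1A3 and MYC passed the adjusted p threshold in opposite directions in the lines, and CD24 and SOX9 passed in the same direction. EPCAM and KLF4 passed in DU145 only by this threshold, and the difference between the lines is given with each gene.

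**Figure D1:**
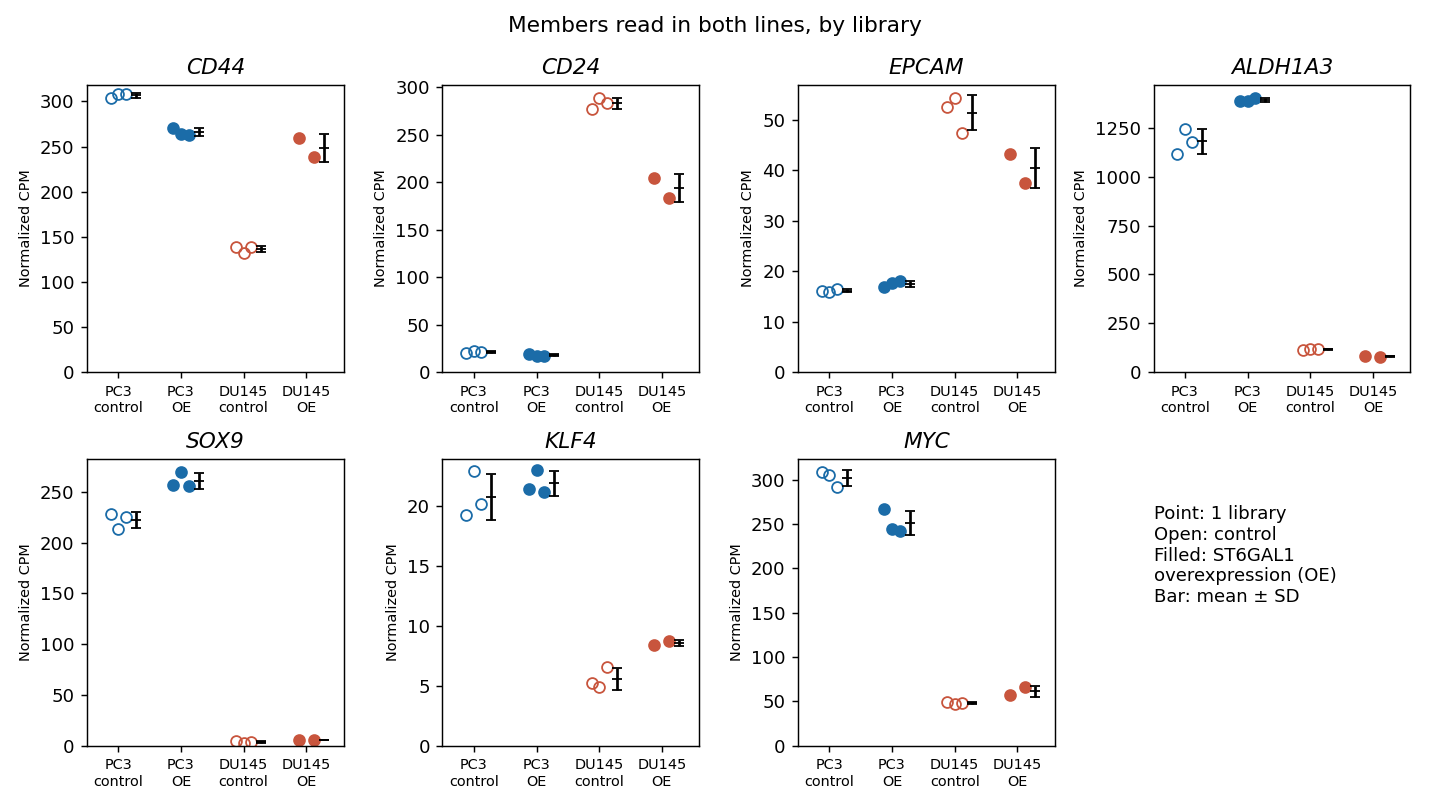
Normalized CPM (vertical axis, from 0) of the 7 tested genes in each library, with 1 panel per gene, open circles for control and filled circles for ST6GAL1 overexpression (OE) libraries, PC3 in blue and DU145 in red, and bars giving the mean ± SD. CD44 sat at 132.5 to 139 in DU145 controls and at 238 to 259.5 with overexpression, while in PC3 the overexpression libraries were the lower ones.

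**Figure D2:**
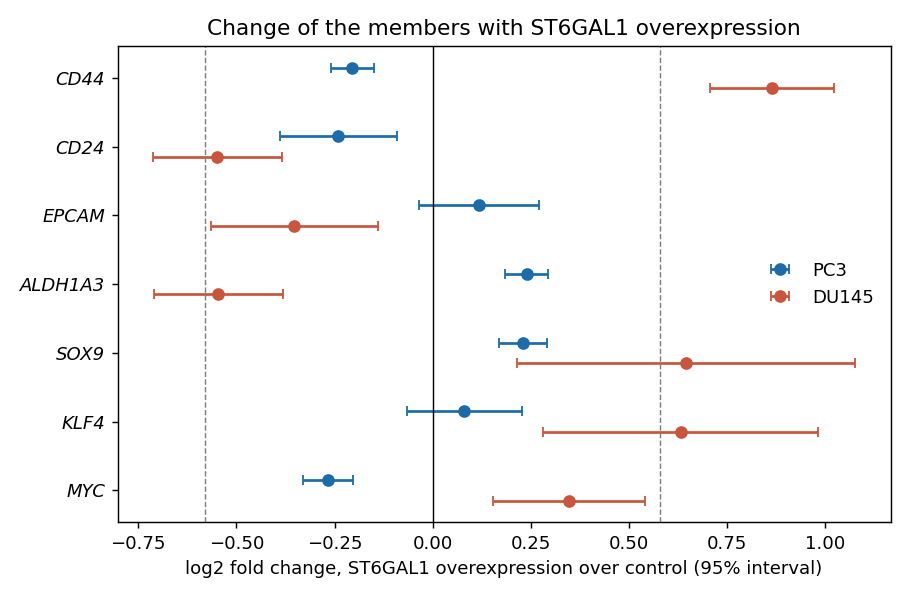
Log2 fold change of ST6GAL1 overexpression over control (horizontal axis) with its 95% interval from edgeR for the 7 tested genes, in PC3 (blue) and DU145 (red), with dashed lines at the fold threshold of 0.58 in either direction. CD44, ALDH1A3 and MYC lie on opposite sides of 0 in the lines, and the PC3 intervals of EPCAM and KLF4 include 0.

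Between the control cells of the lines, every tested gene differed by far more than with overexpression in PC3. In PC3 controls compared with DU145 controls, SOX9 was 62.6-fold, ALDH1A3 10.1-fold, MYC 6.19-fold, KLF4 3.72-fold and CD44 2.23-fold higher, and CD24 and EPCAM were lower, with log2 differences of -3.78 and -1.69. All 7 were called, against 64.6% of 14246 tested genes, 5 higher in PC3 (32.8% of all genes) and 2 lower (31.8%), and none of the groups overlapped, against 88.6%. Cell line and library set cannot be told apart here. Levels were also divided by the joined length of all annotated exons of a gene (6109 bases for MYC and 9992 for CD44). Transcripts can be shorter, and the annotation used in counting is not given, so close ranks between genes depend on that length. On this scale, ALDH1A3 was the most abundant of the genes in PC3 controls, at 221 ± 11.9 CPM per kilobase (SD, n = 3). SOX9 at 56.5 ± 2.10, MYC at 49.3 ± 1.44 and CD44 at 30.6 ± 0.239 followed (SD, n = 3). CD24 (6.68), EPCAM (6.63) and KLF4 (5.66) were lowest, and CD24 and EPCAM overlapped. In DU145 controls CD24 led at 91.7 ± 1.98 CPM per kilobase (SD, n = 3), ALDH1A3 (21.9) and EPCAM (21.3) overlapped, and CD44 (13.7), MYC (7.95), KLF4 (1.52) and SOX9 (0.900) followed without overlap. With overexpression, CD44 moved in DU145 from the fourth to the second place at 24.9 ± 1.43 CPM per kilobase (SD, n = 2), behind CD24 at 62.4 ± 4.50. That move depends on the lengths used. Without division by length, CD44 (137 normalized CPM) already stood between CD24 (283) and ALDH1A3 (117) in DU145 controls. In PC3 the first 4 places did not change with overexpression, and EPCAM (7.19), KLF4 (5.95) and CD24 (5.66) followed, the last 2 overlapping.

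**Figure D3:**
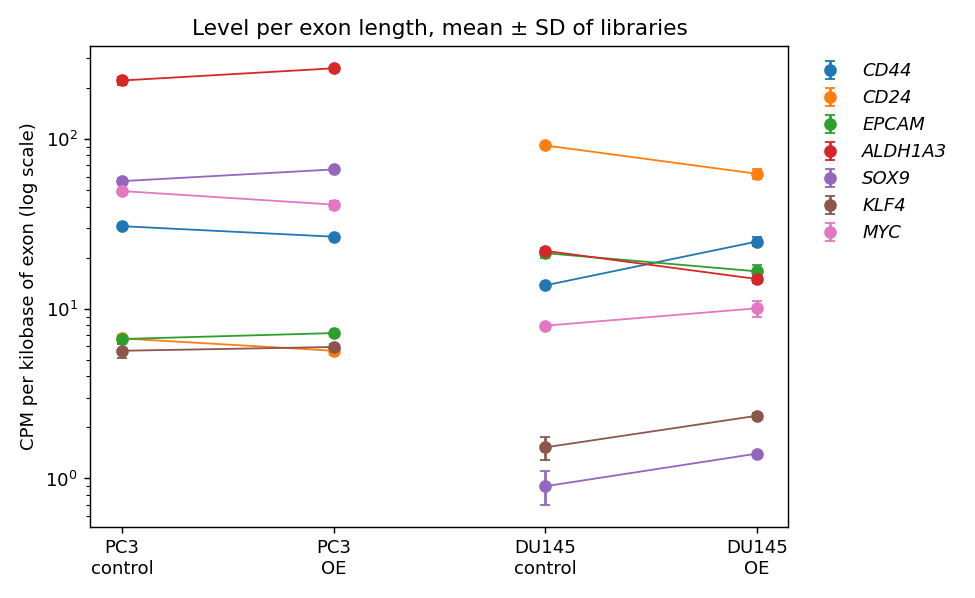
Level of the 7 tested genes per kilobase of exon (vertical log axis, CPM normalized over all 11 libraries) in the 4 groups, with points for means, bars for the SD over libraries and lines joining control and overexpression of a line. ALDH1A3 (221 to 261) is the highest gene in PC3 and CD24 (91.7 to 62.4) in DU145, and SOX9 (0.900 to 1.40) is the lowest in DU145.

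Among the surface markers, CD44 (chromosome 11, GRCh38 35138882 to 35232402) carried the largest change in DU145, whereas in PC3 that of CD24 was slightly larger. In PC3 it was read at 303, 308 and 308 normalized CPM in the control libraries and at 271, 264 and 263 with overexpression. Each overexpression library was below each control library (log2 fold change -0.20, standard error 0.0272, adjusted p = 6.5e-08, edgeR quasi-likelihood test). In DU145 it was read at 139, 132.5 and 139 in control and at 259.5 and 238 in overexpression libraries. Both overexpression libraries were far above the controls, a 1.82-fold rise (log2 fold change 0.86, standard error 0.0733, adjusted p = 2.36e-06, edgeR), which ranged from 0.79 to 0.93 when single libraries were dropped. The change differed between the lines by 1.06 on the log2 scale (standard error 0.0668, adjusted p = 1.34e-09, interaction term in edgeR). For the interaction, 6 of the 7 genes were called, against 19.7% of 14952 tested genes, 3 with a higher value in DU145 (10.4% of all genes) and 3 with a lower one (9.36%). ST6GAL1 itself rose 11.96-fold in PC3 and 25.02-fold in DU145, so cell line and degree of overexpression cannot be told apart. The means of CD44 in both lines came close in overexpressing cells (266 ± 4.29 in PC3, n = 3, and 248.7 ± 15.3 in DU145, n = 2, SD, each normalized within its line), having stood at 307 ± 2.85 and 137 ± 3.63 (SD, n = 3) in control cells.

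CD44 RNA is spliced into standard and variant forms, and the ESRP proteins are epithelial splicing factors that promote inclusion of its variant exons. The gene counts do not separate these forms. Of 14 tested genes for CD44 ligands, linkers, splicing factors and sheddases, 1 was called in PC3 (5.38% of all genes) and 2 in DU145 (8.94%), and these were ESRP1 and ESRP2. ESRP1 was read at 2.02, 2.22 and 2.16 normalized CPM in PC3 controls and at 9.004, 8.74 and 9.23 with overexpression. The PC3 groups were widely apart, with a log2 change of 2.07 (standard error 0.143, adjusted p = 1.73e-15, edgeR). In DU145, ESRP1 was read at 4.48, 5.94 and 4.85 in control and 2.78 and 1.67 in overexpression libraries. Both overexpression libraries were below the controls (log2 fold change -1.21, standard error 0.239, adjusted p = 0.00263, edgeR), on counts of 30 to 94. ESRP1 thus moved against CD44 in each line, and its own change differed between them by -3.30 (adjusted p = 2.73e-08, edgeR interaction). ESRP2 in DU145 stood at 27.8 ± 0.930 CPM in control (SD, n = 3) and 18.5 ± 2.11 in overexpressing cells (SD, n = 2), with a fold change on the log2 scale of -0.58 (adjusted p = 0.00214, edgeR) that was under the fold threshold without DU145 control replicate 2 or DU145 overexpression replicate 2 (-0.48 at its smallest). In PC3 the value for ESRP2 was -0.06 (adjusted p = 0.249, edgeR). The median log2 fold change of the list was -0.06 in PC3 and 0.12 in DU145, where the median over all tested genes was -0.0016 in both lines.

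CD24 (chromosome 6, 106969831 to 106975627) was lower with overexpression in both lines. In PC3 the control libraries were read at 19.6, 21.8 and 20.8 normalized CPM and the overexpression libraries at 18.7, 17.2 and 16.8. These groups did not overlap but lay close together, and the log2 fold change was -0.24 (standard error 0.0737, adjusted p = 0.00844, edgeR). With DESeq2 the adjusted p was 0.0604, and without PC3 overexpression replicate 3 it was 0.0527 in edgeR. In DU145, where the gene is far more abundant, the controls were read at 277, 289 and 283 and the overexpression libraries at 204 and 183. Both lay well below the controls, with a log2 change of -0.55 (standard error 0.0766, adjusted p = 0.000179, edgeR), just short of the fold threshold, which it passed at -0.64 without DU145 overexpression replicate 2. The difference between the lines was -0.31 (standard error 0.0919, adjusted p = 0.0209, edgeR interaction), and it missed the threshold without PC3 control replicate 1 (-0.27, adjusted p = 0.0708, edgeR) or PC3 overexpression replicate 1 (-0.27, adjusted p = 0.0725, edgeR). Every DU145 overexpression library held more CD44 and less CD24 RNA than each DU145 control, whereas in PC3 both genes were lower in every overexpression library. Whether the same cells carried both differences cannot be read from bulk libraries.

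EPCAM (chromosome 2, 47345158 to 47387601) was read in PC3 at 16.1, 15.9 and 16.4 normalized CPM in control and at 16.9, 17.6 and 18.0 in overexpression libraries. The groups did not overlap, but the log2 fold change of 0.12 (95% interval -0.03 to 0.27, adjusted p = 0.23, edgeR) did not pass. In DU145 it was read at 52.6, 54.3 and 47.5 in control and 43.2 and 37.6 in overexpression libraries. Both overexpression libraries were below all controls (log2 fold change -0.35, standard error 0.0988, adjusted p = 0.0219, edgeR). That adjusted p rose to 0.0923 without DU145 control replicate 1 (log2 fold change -0.35), 0.111 without control replicate 2 (-0.33) and 0.0597 without overexpression replicate 3 (-0.25), all in edgeR. The change differed between the lines by -0.48 (standard error 0.114, adjusted p = 0.00538, edgeR interaction), with a highest adjusted p of 0.0194 when single libraries were dropped. EPCAM and CD24, the 2 surface markers that were more abundant in DU145 than in PC3 controls, were thus both lower with overexpression in DU145.

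Of the surface markers outside the 10 genes, LGR5, a receptor of R-spondins on intestinal and other stem cells, was called in PC3. It was read at 33.5, 36.3 and 34.5 normalized CPM in control and at 69.1, 64.4 and 68.8 in overexpression libraries of PC3, a log2 change of 0.95 (standard error 0.0491, adjusted p = 1.04e-19, edgeR), and it had no count in DU145. PSCA, prostate stem cell antigen, was also called in PC3 (log2 fold change 1.43, adjusted p = 0.00341, edgeR) at 0.951 ± 0.0638 CPM with overexpression, on counts as low as 4. In DU145, ITGA2, the integrin subunit used with CD44 and CD133 to sort prostate stem cells, rose, with means of 46.2 ± 6.06 in control (SD, n = 3) and 88.8 ± 3.76 CPM in overexpressing cells (SD, n = 2) and a log2 change of 0.94 (adjusted p = 2.77e-05, edgeR). ITGA2 stood at 157 ± 2.83 and 161 ± 6.71 (SD, n = 3) in PC3 control and overexpression cells, and the change differed between the lines by 0.91 (adjusted p = 2.47e-06, edgeR interaction). ENG (log2 fold change 2.73) and NGFR (-1.38) were the other called genes in DU145, the former from 0.319 ± 0.113 CPM (SD, n = 3). ENG is also expressed by endothelial cells, and PECAM1 was called higher in the same libraries, a call that was lost with DESeq2. The source of the ENG counts was not tested. Of the 19 genes of this list, 11 were tested in PC3 and 2 of them called (5.38% of all genes), and 15 were tested in DU145 and 3 called (8.94%). The median log2 fold changes were 0.05 and 0.23.

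ALDH1A3 (chromosome 15, 100877714 to 100916626) was the most abundant of the 10 genes in PC3 and moved in opposite directions in the lines. The PC3 control libraries were read at 1117, 1247 and 1181 normalized CPM and the overexpression libraries at 1390, 1388 and 1405. All overexpression libraries were above all controls, with a log2 change of 0.24 (standard error 0.0274, adjusted p = 1.23e-08, edgeR), and the spread was smaller with overexpression (SD 9.58) than in controls (SD 65.0). In DU145 the values were 115, 117 and 118 in control and 83.1 and 76.8 in overexpression libraries. Here the overexpression libraries were the lower ones (log2 fold change -0.55, standard error 0.0767, adjusted p = 0.000189, edgeR), and the fold threshold was passed, at -0.61, without DU145 overexpression replicate 2. The change differed between the lines by -0.79 (standard error 0.0749, adjusted p = 2.88e-07, edgeR interaction). An antisense gene, ALDH1A3-AS1, shares 1715 exon bases with ALDH1A3, and whether the authors' counting used strand is not given in the sources used here, so reads of the pair cannot be told apart.

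Of 13 other aldehyde dehydrogenases tested in each line, 1 was called in PC3 (5.38% of all genes) and 3 in DU145 (8.94%), and the median log2 fold changes were 0.15 and -0.02. At an adjusted p under 0.05 alone, 6 were higher and 1 lower in PC3 (18.8% and 18.5% of all genes), and 3 were higher and 3 lower in DU145 (10.7% and 9.42%). ALDH3A2, which oxidises fatty aldehydes, was higher by this threshold in both lines, with log2 fold changes of 0.56 in each (adjusted p = 5.93e-19 in PC3 and 0.00011 in DU145, edgeR). ALDH3A1, which also contributes to aldehyde detoxification, was higher in PC3 (88.8 ± 13.6 against 133 ± 1.86 CPM, SD, n = 3, log2 fold change 0.59, adjusted p = 0.0207, edgeR) and lower in DU145 (log2 fold change -1.58, adjusted p = 4e-04, edgeR), and the lines differed by -2.16 (adjusted p = 4.37e-05, edgeR interaction). Its call in PC3 was lost in 7 of 11 other fits, among them those without PC3 control replicates 1 or 3 or any overexpression replicate, with a lowest value of 0.47. The mitochondrial ALDH2 rose in DU145, with means of 101 ± 2.46 in control (SD, n = 3) and 161 ± 8.25 CPM in overexpressing cells (SD, n = 2) and a log2 change of 0.67 (adjusted p = 2.27e-05, edgeR), and ALDH1L2, of mitochondrial folate metabolism, rose with a log2 fold change of 0.84 (adjusted p = 3.46e-05, edgeR). In PC3 the values were 0.15 for ALDH2 and -0.44 for ALDH1L2, neither of which passed.

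Downstream of ALDH1A3, several genes that carry, sense or degrade retinoic acid fell in both lines. Of 10 tested genes of the retinoic acid pathway, 3 were called in PC3 and 4 in DU145, all lower, against 1.76% and 4.61% of all genes called lower. The median log2 fold changes were -0.12 and -0.30. At an adjusted p under 0.05 alone, 2 in each line were higher, against 18.8% of all genes in PC3 and 10.7% in DU145. CRABP2, which carries retinoic acid to its nuclear receptors, was read in PC3 at 23.9, 25.2 and 26.6 normalized CPM in control and 13.4, 17.6 and 16.8 in overexpression libraries. The groups were separate (log2 fold change -0.65, standard error 0.0785, adjusted p = 7.37e-09, edgeR), and the change was -0.55, under the fold threshold, without PC3 overexpression replicate 1. In DU145 it was read at 161, 159 and 144.5 in control and at 31.4 and 29.1 in overexpression libraries. This was the largest fall of the list, with a log2 change of -2.36 (standard error 0.0900, adjusted p = 1.44e-09, edgeR), and it differed from that in PC3 by -1.71 (adjusted p = 9.95e-09, edgeR interaction). CYP26B1, which degrades retinoic acid, was called lower in both lines, with log2 fold changes of -1.04 in PC3 (counts of 16 to 55 in its libraries) and -0.71 in DU145, and these were not distinguishable (difference 0.32, standard error 0.248, adjusted p = 0.403, edgeR interaction). The receptor gene RARB was the remaining call in PC3, at 2.12 ± 0.391 against 0.652 ± 0.152 CPM (SD, n = 3, log2 fold change -1.68, adjusted p = 5.97e-06, edgeR). CYP26A1 was also called in DU145 (log2 fold change -1.16). DHRS3, which reduces retinaldehyde to retinol, was higher at an adjusted p under 0.05 in both lines (log2 fold changes 0.21 and 0.45, adjusted p = 0.00512 and 0.00587, edgeR) but under the fold threshold.

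Of the transcription factors, SOX9 (chromosome 17, 72121020 to 72126416) was higher with overexpression in both lines, from very different levels. PC3 controls were read at 228, 213 and 226 normalized CPM and overexpression libraries at 256.5, 269 and 256. The groups did not overlap, and the log2 fold change was 0.23 (standard error 0.0303, adjusted p = 5.33e-08, edgeR). DU145 controls were read at 4.28, 2.71 and 3.58 (counts of 65, 43 and 48) and overexpression libraries at 5.56 and 5.46 (counts of 86 and 98). Both were above all controls (log2 fold change 0.65, standard error 0.200, adjusted p = 0.0352, edgeR), but the call rests on few counts. The adjusted p was 0.161 with DESeq2, and in edgeR it was 0.19 without DU145 control replicate 2 (log2 fold change 0.46), 0.108 without control replicate 3 (0.64) and 0.0656 without overexpression replicate 2 (0.63). The difference between the lines was 0.41 (95% interval 0.08 to 0.74, adjusted p = 0.0723, edgeR interaction), which did not pass, except without DU145 control replicate 1 (0.58, adjusted p = 0.0178, edgeR).

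KLF4 (chromosome 9, 107484852 to 107490482) was read in PC3 at 19.2, 22.9 and 20.1 normalized CPM in control and at 21.4, 23 and 21.1 in overexpression libraries. These groups overlapped, with a log2 fold change of 0.08 (95% interval -0.07 to 0.23, adjusted p = 0.413, edgeR). In DU145 it was read at 5.20, 4.93 and 6.56 in control (counts of 79, 78 and 88) and at 8.41 and 8.74 in overexpression libraries (counts of 130 and 157). Both overexpression libraries were above all controls, a 1.55-fold rise (log2 fold change 0.63, standard error 0.163, adjusted p = 0.0141, edgeR). The call was lost with DESeq2 (adjusted p = 0.0641), and in edgeR without DU145 control replicate 1 (0.57, adjusted p = 0.0952) or 2 (0.53, adjusted p = 0.119). The lines differed by 0.55 (standard error 0.164, adjusted p = 0.0225, edgeR interaction), and this difference missed the threshold without DU145 control replicate 1 (0.50, adjusted p = 0.0668, edgeR) or 2 (0.47, adjusted p = 0.0758), PC3 control replicate 2 (0.48, adjusted p = 0.0535) or PC3 overexpression replicate 3 (0.53, adjusted p = 0.0506). A gene on the other strand shares 357 exon bases with KLF4.

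MYC (chromosome 8, 127735434 to 127742951) differed in opposite directions. In PC3 it was read at 309, 305 and 292 normalized CPM in control and at 267, 244 and 243 in overexpression libraries. Every overexpression library was lower (log2 fold change -0.27, standard error 0.0314, adjusted p = 7.2e-09, edgeR). In DU145 it was read at 49.7, 47.6 and 47.8 in control and 57.1 and 65.9 in overexpression libraries. Both were higher (log2 fold change 0.35, standard error 0.0899, adjusted p = 0.0141, edgeR), and the adjusted p rose in edgeR to 0.0771, 0.111 and 0.069 without DU145 control replicate 1, 2 or 3 (log2 fold changes 0.35, 0.32 and 0.33). The difference between the lines was 0.61 (standard error 0.0868, adjusted p = 4.36e-05, edgeR interaction), with a highest adjusted p of 0.000359 when single libraries were dropped. CASC11 on the other strand shares 194 exon bases with MYC.

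MYC drives genes for ribosome assembly, nucleotide and polyamine synthesis and protein folding, and a list of 22 such targets was read beside it. In PC3, 17 of 21 tested targets were lower at an adjusted p under 0.05 (18.5% of all genes) and 1 was higher (18.8%). The median log2 fold change was -0.15, and none was past the fold threshold. The part of MYC in these changes was not tested. Examples, chosen after their values were seen, were the polyamine synthesis gene ODC1 (log2 fold change -0.30, adjusted p = 1.52e-13, edgeR), the chaperonin genes HSPD1 (-0.25, adjusted p = 1.98e-10) and HSPE1 (-0.28, adjusted p = 4.43e-06), and the ribosome assembly gene BOP1 (-0.21, adjusted p = 1.47e-07). LDHA, of glycolysis, was the higher one, with a log2 fold change of 0.11 (adjusted p = 0.000146, edgeR). PPAN, TFRC and TERT did not pass. In alternatives chosen after seeing the data, the number lower was 16 with DESeq2, 17 with limma-voom and 15 to 18 when single libraries were dropped. In DU145, no target was higher at an adjusted p under 0.05 (10.7% of all genes were). Against 9.42% of all genes, 2 were lower, SRM (log2 fold change -0.61, adjusted p = 0.0019, edgeR) and HSPE1 (-0.37, adjusted p = 0.048, edgeR), with a list median of -0.09. SRM was under the fold threshold, at -0.45, without DU145 overexpression replicate 2. The targets' own change was called different between the lines for 2 of 21, SRM and RRS1, against 19.7% of all tested genes. Between the control lines, 16 of the 21 targets were called and 14 of these were higher in PC3, where 64.6% of all tested genes were called and 32.8% were called higher.

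Among 13 tested partners and antagonists of MYC in each line, MLXIPL was the single call in PC3, from 0.480 ± 0.173 to 1.78 ± 0.395 CPM (SD, n = 3, log2 fold change 1.92, adjusted p = 5.77e-06, edgeR), and none was called in DU145. Of all tested genes, 5.38% were called in PC3 and 8.94% in DU145. The other KLF genes showed 7 lower and 1 higher of 11 tested in PC3 at an adjusted p under 0.05 (18.5% and 18.8% of all genes), with a median of -0.11. In DU145, 3 of 13 were higher and none lower (10.7% and 9.42% of all genes), with a median of 0.20. KLF10, which responds early to TGF-β, was the leading one in DU145, at 26.3 ± 1.43 (SD, n = 3) against 49.1 ± 2.65 normalized CPM (SD, n = 2), with a log2 change of 0.90 (adjusted p = 1.58e-05, edgeR). In PC3 the change of KLF10 was -0.18 (adjusted p = 4.5e-05, edgeR), and the lines differed by 1.07 (adjusted p = 2.31e-08, edgeR interaction). KLF7 was called in DU145 too (0.60, adjusted p = 0.00565, edgeR), though not without DU145 control replicates 2 or 3 or overexpression replicate 3, and its PC3 value was -0.40. Its lowest value over these fits was 0.52 and its highest adjusted p 0.0674 (edgeR).

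Of the other SOX genes, SOX4, a progenitor factor that is also found in many carcinomas, was the one that rose most clearly. It was read in DU145 at 48.1, 49.1 and 49.1 normalized CPM in control and at 106 and 106 in overexpression libraries. The groups were far apart (log2 fold change 1.12, standard error 0.0762, adjusted p = 3.02e-07, edgeR). In PC3 it was read at 70.8, 75.7 and 78.5 in control and 92.5, 94 and 89.9 in overexpression libraries, a log2 fold change of 0.30 (adjusted p = 8.94e-08, edgeR) under the fold threshold. The lines differed by 0.82 (adjusted p = 2.88e-07, edgeR interaction). SOX30 in PC3 (-0.80, from 1.68 CPM) and SOX17 in DU145 (1.35, to 1.05 CPM) were called at low levels, and each lost its call with DESeq2 (adjusted p = 0.109 and 0.225). SOX30 also lost it without PC3 control replicate 1 or 2 or overexpression replicate 2 (smallest change over all fits -0.70), and SOX17 without any single DU145 library (1.10). In all, 11 other SOX genes were tested in PC3 and 7 in DU145, with 1 and 2 called, against 5.38% and 8.94% of all genes. Of the pluripotency factors besides SOX2, KLF4 and MYC, 2 were tested in PC3 with none called and 3 in DU145, where SALL4 was called (0.61, adjusted p = 0.013, edgeR), though not without any of the DU145 control replicates or overexpression replicate 3, with a lowest value of 0.38. Of 6 tested polycomb genes, BMI1, a self-renewal factor, was the only one called in DU145, and none was called in PC3. BMI1 was lower in DU145 (3.31 ± 0.459 CPM, n = 3, against 1.83 ± 0.484, n = 2, SD, log2 fold change -0.83, adjusted p = 0.0286, edgeR), with an adjusted p of 0.126 in DESeq2. Its call was also lost without any of the DU145 control replicates or overexpression replicate 2, with a smallest change of -0.61 over all fits. The median log2 fold change of the polycomb genes in DU145 was -0.08. For the pluripotency and polycomb lists too, the shares of all genes called were 5.38% in PC3 and 8.94% in DU145.

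Keratin 15, a marker of basal and progenitor cells, also went in opposite directions. KRT15 was read at 14.1 ± 0.658 and 28.3 ± 0.869 normalized CPM in PC3 control and overexpression cells (SD, n = 3, log2 fold change 1.00, adjusted p = 3.24e-15, edgeR) and at 2.63 ± 0.0754 (SD, n = 3) and 1.33 ± 0.325 (SD, n = 2) in DU145 (log2 fold change -0.97, adjusted p = 0.0176, edgeR). The DU145 call was lost with DESeq2 (adjusted p = 0.101) and without DU145 control replicates 1 or 2 or overexpression replicate 2, with a smallest change of -0.76 over all fits. The difference between the lines was -1.97 (adjusted p = 2.49e-06, edgeR interaction). KRT5 had no count, so no basal identity is read from this gene. Luminal genes called in PC3, of 7 tested, were HOXB13 (552 ± 24.2 against 839 ± 10.97 normalized CPM, SD, n = 3, log2 fold change 0.60, adjusted p = 4.19e-22, edgeR, and 0.57 without PC3 control replicate 1), FOLH1 (1.42) and TMPRSS2 (0.70), all higher, and in DU145 none of the 3 tested was called. Of all tested genes, 3.61% were called higher in PC3, and 8.94% were called in DU145.

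The changes of the 10 genes were next set against those of their neighbours on the chromosome. For each gene the 25 nearest tested genes on either side were taken, or as many as the chromosome end left. In PC3 the neighbours' medians lay between -0.08 and 0.04 on the log2 scale for all 10 genes. In DU145 the median was 0.01 around CD44, 0.09 around CD24, 0.08 around EPCAM, 0.10 around ALDH1A3 (34 neighbours), -0.07 around SOX9 and 0.08 around KLF4, so that these genes stood outside the middle 50% of their neighbours. MYC differed from these. Of its 50 neighbours in DU145, 37 were higher with overexpression, with a median of 0.18 and quartiles of -0.01 and 0.46, and the value of MYC itself, 0.35, lay inside this range. PROM1, which had no measurable RNA, sat among 50 neighbours of which 44 were higher, with a median of 0.42. The part of the neighbourhood in the MYC value was not tested.

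**Figure D4:**
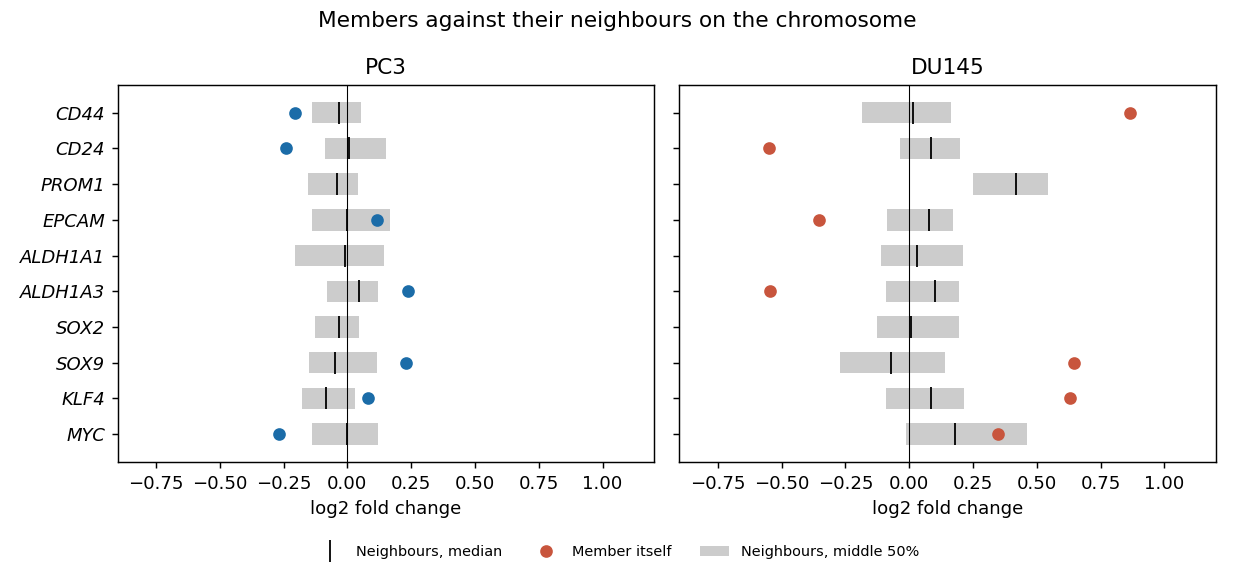
Log2 fold change (horizontal axis) of each of the 10 genes (points, blue in PC3 and red in DU145, absent for the 3 genes that were not tested) against its tested neighbours on the chromosome, with grey bars for the middle 50% of the neighbours and a black tick for their median. In DU145, MYC lies within the bar of its neighbours and the bar around PROM1, with a median of 0.42, lies to the right of 0.

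The genes whose pattern over the 11 libraries was most like that of the called genes were found by Pearson correlation of log2(normalized CPM + 1), centred within each line, among 10018 genes with a mean of at least 10 CPM. These values are a description, since the libraries share line and treatment. CDK6 (r = 0.995) and EXT1 (r = 0.994) were most like CD44, with log2 fold changes of -0.15 and -0.23 in PC3 and 0.59 and 1.05 in DU145. TOR1AIP2 (r = 0.965) and ATM (r = 0.962) were most like SOX9, and P3H1 (r = 0.954) most like KLF4, with DU145 log2 fold changes between 0.21 and 0.35. The gene that came second for KLF4 is Y-linked and is not named here.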

How the data were processed

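RNA-Seq of PC3 and DU145 cells, with control lentivirus or ST6GAL1 overexpression, was analysed from gene counts. In Galaxy the authors trimmed single-end reads with Cutadapt, aligned to hg38 using HISAT2 and obtained gene counts from featureCounts, and they deposited the counts without normalization by Entrez identifier. The gene annotation and strand setting used in counting are not given in the sources used here. Symbols were assigned from RefSeq for 27745 of 28395 identifiers (97.7%), and positions and exon lengths from GENCODE 44 on GRCh38. Columns were matched to samples by name.

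Counts were tested with edgeR 4.0.16 in R 4.3.3 (filterByExpr defaults, TMM, estimateDisp, robust quasi-likelihood test) within each line, over all 11 libraries for the interaction, and over the 6 control libraries for the lines, with Benjamini-Hochberg adjustment over all tested genes. Calls needed an adjusted p under 0.05 and, except for the interaction, an absolute log2 fold change over 0.58. Standard errors were derived from the fold change and F. Normalized CPM used TMM factors of the line, and CPM per kilobase used those of all libraries. P-values measure the spread between these libraries. Whether replicates came from separate transductions is not given in the sources used here. If they did not, differences between the transduced populations and those due to ST6GAL1 cannot be told apart. PC3 replicates varied less (biological coefficient of variation 0.0226) than those of DU145 (0.0817). Scripts were tested on simulated data. No replicate pair differed by less than the sampling noise.

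The 10 genes and the other gene lists were chosen with earlier results of these data known. By rule, the 2 called genes with the smallest adjusted p were named per list and line, and the 2 genes most alike per called gene. Further list genes (ALDH3A1 in DU145, ALDH3A2, DHRS3, RXRB, RING1, CYP26B1 in PC3, CYP26A1, NGFR, TMPRSS2, values in the uncalled line and MYC targets other than SRM) were named after their values were seen, and some items are not reported here. Alternatives were limma-voom (limma 3.58.1), DESeq2 1.42.0, RLE factors, no filter, at least 10 counts in every library, a replicate block, each library left out and other fold thresholds.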

Additional observations from a re-analysis of the deposited data

Results flagged for a closer look

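The change with ST6GAL1 overexpression differed between DU145 and PC3 for 6 of the 7 tested genes by the interaction term over all 11 libraries (edgeR, adjusted p under 0.05). On the log2 scale, the DU145 change less the PC3 change was 1.06 for CD44, -0.31 for CD24, -0.48 for EPCAM, -0.79 for ALDH1A3, 0.55 for KLF4 and 0.61 for MYC. CD44, ALDH1A3 and MYC passed with opposite signs in the lines, CD24 was lower in both, and EPCAM and KLF4 did not pass in PC3. The values for CD24 and KLF4 lost their call when single libraries were left out, while those for CD44, EPCAM, ALDH1A3 and MYC did not. DU145 overexpression is represented by 2 libraries, and line and library set cannot be told apart. ST6GAL1 itself rose 11.96-fold in PC3 and 25.02-fold in DU145, a difference of 1.06 on the log2 scale (adjusted p = 0.000286, edgeR interaction). Cell line and degree of overexpression can therefore not be told apart either.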

How the results depend on the processing

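The 7 tested genes kept their directions under all alternatives run. Of the values for single genes, 379 kept their side of the threshold, 21 lost a call and 13 gained one. Without a fold threshold, 5056 genes and 5 of the 10 were called in PC3 and 2747 genes and 7 of the 10 in DU145. At a log2 fold change over 1 the numbers were 286 genes in PC3, 596 genes and 0 of the 10 in DU145, and 659 genes and 1 of the 10 (CD44) for the difference between the lines. With DESeq2, 1 of the 10 was called in DU145. With each library left out, DU145 gave 830 to 2072 genes and 1 to 4 of the 10, and the difference between the lines 2287 to 5161 genes. The highest values came without DU145 overexpression replicate 3 (2072 and 5161), where the remaining library is assumed to vary like the other groups, and 1 of the 10 was called without DU145 control replicate 2. The cause was not tested. Deviations of same-numbered PC3 libraries correlated at 0.0447, 0.126 and 0.0342, and those of DU145 at 0.217 and 0.519. PC3 control replicate 1 correlated slightly better with overexpression replicate 3 (0.0471) than with its own number. With 2 DU145 overexpression libraries, the values of each control library are equal and opposite by construction. Whether same-numbered libraries were paired can therefore not be decided from these correlations. With the replicate number as a block, 740 genes were called in PC3 (728 without it), 1517 in DU145 (1222), 3551 for the difference (2949) and 9197 between the control lines (9205). The block added SOX9 to the called differences (0.58, adjusted p = 0.0311, edgeR) and changed no other call of the 10 genes. Genes below 3 counts (PROM1, ALDH1A1, SOX2) and the 2 DU145 overexpression libraries limit what can be seen.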
